A study of Mus musculus with 4 samples.

Results

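The genes described here are 8 genes of coagulation and fibrinolysis, Vwf, Thbd, Procr, Tfpi, Plat, F8, Anxa2 and Tgm2, chosen by symbol among the 32285 gene rows of the count matrices. All 8 symbols were found, each in 1 row. They were followed in single mouse brain cells sorted by flow cytometry for CD31, which endothelial cells carry on their surface. Mice of the strain C57BL6 received either the control diet or feed carrying PLX5622 at 1200 ppm, in both cases over 1 month. PLX5622 inhibits CSF1R, the receptor that microglia need for survival. Each diet had 2 libraries prepared from the brains of 3 mice, so that libraries and animals do not match one to one, and p-values here rest on the spread of libraries, which may be partly technical. Meninges, cerebellum and olfactory bulbs had been discarded, and no genotype beyond the strain and no age was given in the labels used here.

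Endothelial cells line the vessel and keep blood fluid on one side while holding factors that stop bleeding on the other. They store and release von Willebrand factor, which tethers platelets, and they carry thrombomodulin, which turns thrombin into an activator of the anticoagulant protein C. Their endothelial protein C receptor presents protein C to thrombin bound to thrombomodulin. Tissue plasminogen activator and its cofactors then dissolve fibrin. Mural cells, the pericytes of capillaries and the smooth muscle cells of larger vessels, sit on the outer side of the same vessels.

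After filtering (1000 or more UMIs, or unique molecules counted per cell, 500 or more genes, and no more than 10% of UMIs from mitochondrial genes), 14864 cells remained. Per library, 1696 and 5509 cells were kept on the control diet and 3989 and 3670 on PLX5622, with median depths of 3834 to 5921.5 UMIs per cell. Endothelial-like cells numbered 13363, and all 10 endothelial markers were detected in them in every library. They were divided into 1318 arterial-like, 3886 arterial-side capillary-like, 5113 venous-side capillary-like and 1464 venous-like cells, while 1563 cells fell in no zone and 19 carried markers of fenestrated endothelium. Pericyte-like cells numbered 92 and smooth muscle-like cells 200, and a further 509 droplets held pericyte and endothelial markers together. The 8 genes and the other genes of the pathway took no part in the clustering or in naming the zones. Zones are nevertheless clusters of the same cells, so differences between zones are described without a test. Any pair of libraries shared 1 to 6 barcodes among the kept cells. Levels are given as CPM, the UMIs of a gene scaled to a common total of the UMIs summed over the cells of a class, and lists of 4 values follow the order control diet 1, control diet 2, PLX5622 diet 1, PLX5622 diet 2.

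Upstream sequences of 3 genes are shown because these genes led in a class other than venous-like cells and their starts are in the table used: Procr and Anxa2, which were higher in arterial-like cells than in the other endothelial zones, and Tfpi, which was highest in pericyte-like cells. RefSeq's table (GRCm38.p6) matched 4 of the 8 genes. Each line holds the 250 bases before the start that RefSeq annotates, 5′ to 3′ on the gene's strand, and capitals mark the motif matches on either strand.
Procr upstream region, chr2:155750967-155751216, plus strand: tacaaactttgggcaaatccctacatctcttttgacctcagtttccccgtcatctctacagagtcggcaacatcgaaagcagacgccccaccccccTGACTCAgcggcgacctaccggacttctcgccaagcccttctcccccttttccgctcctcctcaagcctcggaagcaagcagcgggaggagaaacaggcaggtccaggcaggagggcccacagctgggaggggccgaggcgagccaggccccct
Anxa2 upstream region, chr9:69453433-69453682, plus strand: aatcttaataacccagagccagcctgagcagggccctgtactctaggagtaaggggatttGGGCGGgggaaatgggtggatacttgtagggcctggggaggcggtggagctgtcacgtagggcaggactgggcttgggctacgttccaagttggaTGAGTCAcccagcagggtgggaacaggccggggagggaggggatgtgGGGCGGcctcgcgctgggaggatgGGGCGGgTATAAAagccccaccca
Tfpi upstream region, chr2:84476760-84477009, minus strand: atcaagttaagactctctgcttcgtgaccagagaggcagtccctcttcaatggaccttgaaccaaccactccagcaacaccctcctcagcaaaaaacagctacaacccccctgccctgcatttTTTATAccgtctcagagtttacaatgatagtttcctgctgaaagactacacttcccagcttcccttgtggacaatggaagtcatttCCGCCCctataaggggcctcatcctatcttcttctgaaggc
The motifs searched were the AP-1 element TGANTCA, the TATA box TATAAA, the GC box GGGCGG and the ETS element AGGAAG. The windows of Procr and Anxa2 each held 1 AP-1 match, 154 and 95 bases before the start. Of all 32851 windows of this length, 6.75% held an AP-1 match. Anxa2 also held 1 TATA match, 17 bases before the start, and 3 GC box matches, whereas Tfpi held 1 TATA match and 1 GC box match on the reverse strand. TATA, GC box and ETS letters were found in 12.4%, 32.7% and 29.5% of all windows. The GC content was 61.6% for Procr, 62.4% for Anxa2 and 48.4% for Tfpi, beside a median of 52.4% over all windows. The GENCODE M21 annotation behind the gene coordinates given here places these starts farther upstream, so that 100, 63 and 16 bases of the Procr, Anxa2 and Tfpi windows lie inside the gene by that annotation. RefSeq lists a further start for Tfpi, whose window is not shown. These matches are letters in a window and not measured binding.

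Vwf encodes von Willebrand factor, the large glycoprotein that carries clotting factor VIII and tethers platelets (GRCm38 chromosome 6, 125546774 to 125686679, plus strand). Its level was highest in venous-like cells at 239, 234, 466 and 408 CPM. Arterial-like cells followed at 150, 187, 134 and 205 CPM. The venous-like range did not overlap the arterial-like range, and within a library the venous-like level was 1.25 to 3.48 times the arterial-like level. Of the venous-like cells, only a core described below with the diet comparison lay above the arterial-like range. In venous-side capillary-like cells the level was 55.4 to 86.4 CPM and in arterial-side capillary-like cells 39.5 to 61.2 CPM. These capillary ranges overlapped, although the venous side was the higher in 4 of 4 libraries. In mural cells Vwf was close to absent, with 1 UMI in 92 pericyte-like cells and 2 UMIs in 200 smooth muscle-like cells. Smooth muscle-like cells thus stood at 1.16 CPM over all libraries, below the 1.75 CPM that 3 counts would give.

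Vwf was unevenly spread over venous-like cells. The tenth of cells with most Vwf UMIs held 52.5% of all Vwf UMIs there, and 1 cell held 60. In the same cells this share was 35.8% for Tgm2, 35.2% for Thbd, 31.6% for Anxa2 and 31.1% for Plat. It was 66.1% for Tfpi and 100% for Procr and F8, which had fewer UMIs. Elsewhere the Vwf share was 51.4% in arterial-like, 65.1% in venous-side capillary-like and 68.9% in arterial-side capillary-like cells. Such shares are also high where UMIs are few, and Vwf had 1216 UMIs in 3886 arterial-side capillary-like cells. In those cells Tgm2, with 1970 UMIs, stood at 50.5% and Tfpi, with 643, at 77.8%. Venous-like cells contributed 39.4% to 52.2% of the endothelial Vwf UMIs per library. They made up 8.24% to 12% of endothelial-like cells but held 14.6% to 19.3% of all endothelial UMIs.

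Tgm2 encodes transglutaminase 2, an enzyme that crosslinks proteins, fibrin among its known substrates (chromosome 2, 158116402 to 158146436, minus strand). It had the same leading zone as Vwf, at 219, 190, 316 and 267 CPM in venous-like cells. The other 3 endothelial zones lay between 70.2 and 110 CPM and overlapped one another in part, while the 19 cells with fenestrated markers, all from the control diet, held 210 and 277 CPM. Tgm2 in venous-like cells was 1.74 to 3.50 times its arterial-like level within a library. Smooth muscle-like cells held 54.1 to 67.7 CPM, and in pericyte-like cells only 4 Tgm2 UMIs were counted. Tgm2 overlaps Rprd1b and Gm20412 on the opposite strand, and no source used here states whether counting used strand, so their reads may not be told apart. Rprd1b stood at 40.7, 32.8, 30.1 and 37.6 CPM in venous-like cells, without the order seen for Tgm2.

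Thbd encodes thrombomodulin, the thrombin receptor that starts protein C activation (chromosome 2, 148404466 to 148408188, minus strand). Of the 4 endothelial zones it was highest in arterial-side capillary-like cells, at 336, 318, 348 and 325 CPM, and lowest of the endothelial zones in venous-side capillary-like cells, at 221, 180, 235 and 206 CPM. In each library the first was 1.48 to 1.77 times the second. Venous-like cells (250.3 to 299.8 CPM) and arterial-like cells (218 to 293 CPM) lay between and overlapped. The few fenestrated-marked cells held more than any zone, 379 and 622 CPM from 9 and 63 UMIs. Pericyte-like and smooth muscle-like cells had 28.5 to 77.3 CPM.

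Procr encodes the endothelial protein C receptor, which presents protein C to thrombomodulin-bound thrombin (chromosome 2, 155751117 to 155755471, plus strand). Among endothelial zones it was highest in arterial-like cells, at 37.8, 39.4, 33.3 and 34.2 CPM. Arterial-side capillary-like cells held 16.7 to 20.9 CPM, and both venous-side capillary-like cells (9.60 to 11.9 CPM) and venous-like cells (10.6 to 11.7 CPM) stood lower and overlapped. Its arterial-like level was 3.05 to 3.60 times the venous-like level within a library. Smooth muscle-like cells held 41.9, 46.5, 42.7 and 28.8 CPM, a range that overlapped the arterial-like one. In pericyte-like cells 2 Procr UMIs were counted, fewer than 3 counts. Thbd and Procr, partners in protein C activation, therefore had different leading zones.

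Tfpi encodes tissue factor pathway inhibitor, which blocks the start of the clotting cascade (chromosome 2, 84432855 to 84476775, minus strand). Pericyte-like cells held 175, 228, 258 and 295 CPM, from 67 UMIs in 92 cells. No other class reached that range: smooth muscle-like cells held 25.6 to 70.9 CPM and the endothelial zones 17.6 to 35.9 CPM. Within a library the pericyte-like level was 4.88 to 11.2 times that of arterial-side capillary-like cells. A UMI of Tfpi was found in 43.5% of pericyte-like cells and in 11.3% of endothelial-like cells, which had more UMIs per cell.

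Plat encodes tissue plasminogen activator, the protease that turns plasminogen into fibrin-dissolving plasmin (chromosome 8, 22757727 to 22782844, plus strand). Its level was similar across the endothelial zones, from 403 to 555 CPM, with overlapping ranges. Pericyte-like cells stood higher in each library, at 665, 683, 606 and 559 CPM, or 1.16 to 1.37 times the arterial-side capillary-like level. These levels rest on only 171 UMIs in 92 cells, 8 of them in control diet 1. So small a difference was not tested and may lie within counting error. Smooth muscle-like cells held less, at 152, 247, 185 and 138 CPM. The fenestrated-marked cells held 42.1 and 0 CPM of Plat.

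Anxa2 encodes annexin A2, which together with S100a10 forms a cell surface receptor for plasminogen and its activator (chromosome 9, 69453620 to 69491795, plus strand). Of the 4 endothelial zones it was highest in arterial-like cells at 182, 214, 202 and 176 CPM, above venous-like cells (154 to 194 CPM) in 4 of 4 libraries with overlapping ranges. The capillary zones held 120 to 162 CPM. Outside the zones, the fenestrated-marked cells held more, 294 and 405 CPM from 7 and 41 UMIs, and endothelial-like cells of no zone held 187 to 211 CPM. Pericyte-like cells, with 1, 4, 16 and 8 Anxa2 UMIs, reached 206 CPM in PLX5622 diet 1, and smooth muscle-like cells held 58.0 to 99.7 CPM. Its partner S100a10 differed more between zones. Arterial-like cells held 168, 195, 173 and 219 CPM of S100a10, venous-like cells 48.7 to 70.2 CPM and venous-side capillary-like cells 9.56 to 26.3 CPM. In pericyte-like cells no S100a10 UMI was counted, while 29 Anxa2 UMIs were.

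F8 encodes clotting factor VIII, the cofactor that von Willebrand factor carries (X chromosome, 75172715 to 75382615, minus strand). It was hardly detected, with 9, 19, 10 and 8 UMIs in all endothelial-like cells of a library. Those 46 UMIs came from 41 of 13363 cells (0.307%) and amounted to 0.601 CPM. No zone order could be read from them. F8 overlaps Fundc2 on the opposite strand, which stood at 59.7 to 64.0 CPM in endothelial-like cells.

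**Figure D1:**
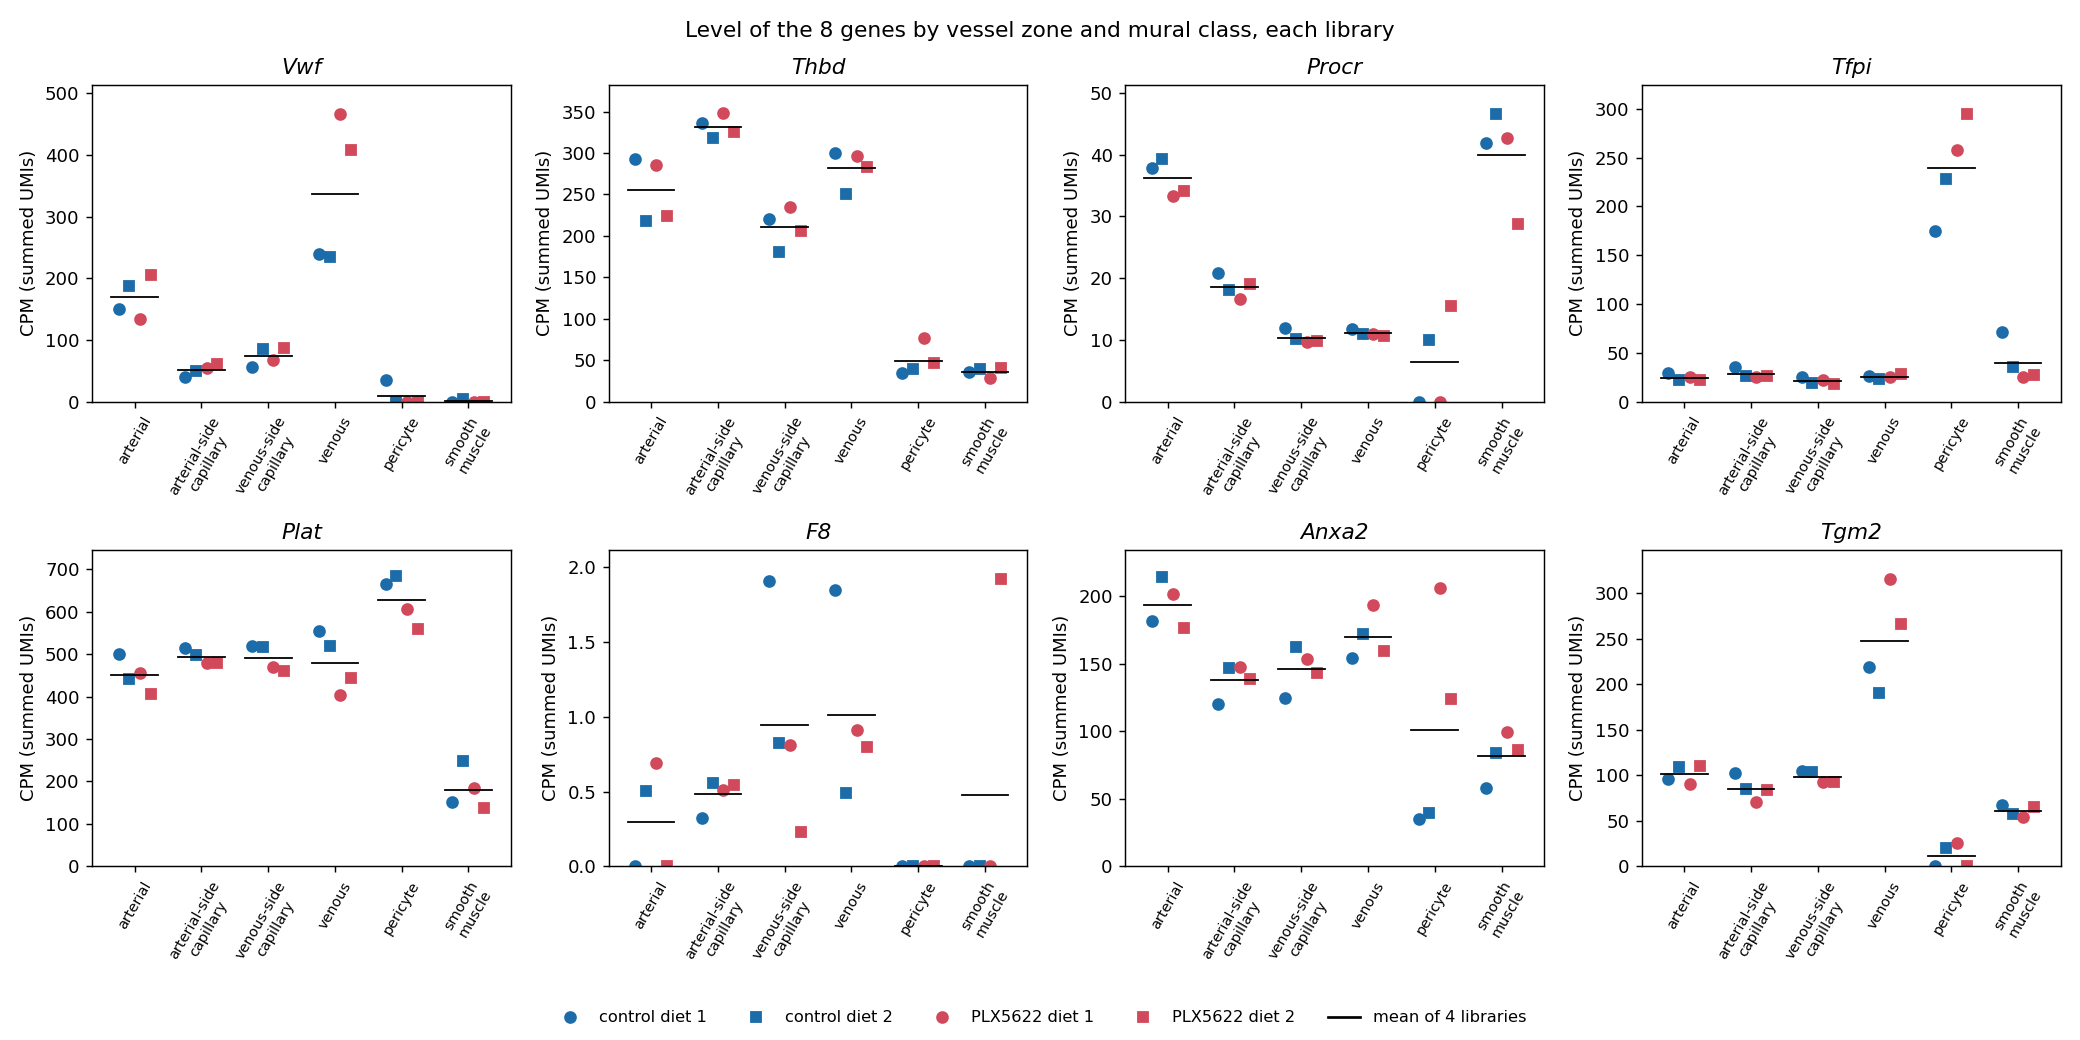
Level of each gene in CPM (vertical axes, from 0) in the 4 endothelial zones and 2 mural classes (horizontal axes), 1 point per library and a line at the mean. Vwf and Tgm2 are highest in venous-like cells, Procr in arterial-like and smooth muscle-like cells and Tfpi in pericyte-like cells, with venous-like Vwf at 466 and 408 CPM on PLX5622 and at 239 and 234 CPM on the control diet.

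Endothelial RNA carried over into mural droplets was measured through Cldn5, a tight junction gene of endothelium. For each 100 Cldn5 UMIs, endothelial-like cells held 6.39 Plat UMIs, pericyte-like cells 1140 and smooth muscle-like cells 537. The matching values for Tfpi were 0.320, 447 and 108, and those for Procr 0.212, 13.3 and 115. For Vwf they were 1.68, 6.67 and 3.39, the mural values resting on 1 and 2 Vwf UMIs. The mural ratios rest on 15 and 59 Cldn5 UMIs, and these classes had been kept apart from mixed droplets by their low share of endothelial markers, Cldn5 among them. The part of carried-over RNA in the mural levels was not tested. Endothelial markers made up 0.0171% to 0.0464% of UMIs in pericyte-like cells and 0.00949% to 0.0167% in smooth muscle-like cells.

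The genes with the pattern most like each member were sought over the 24 sums of 6 classes and 4 libraries. Pearson's r of log2(CPM + 1) was used among 6685 genes with a mean of at least 20 CPM. The sums share libraries and the contrast of endothelial with mural cells, so r is given as a description only. For Vwf the nearest were Foxl2 (r = 0.96), Rhobtb1 (0.94) and Alas1 (0.94), and for Tgm2 they were Cog5 (0.97), Iigp1 (0.96) and Cav1 (0.96). Thbd was nearest to Sgms1 (0.98), Mecom (0.98) and Zfp366 (0.98). Procr lay closest to Pdlim7 (0.97), Gadd45g (0.95) and Nr4a1 (0.92). The pattern of Tfpi resembled those of the pericyte marker Kcnj8 (0.97), Tmem109 (0.97) and Nodal (0.97). Plat followed Ece1 (0.97), Coro2b (0.96) and Pttg1ip (0.96), and Anxa2 followed Stat2 (0.93), Cebpzos (0.91) and Pqlc1 (0.91). F8 was too sparse for its nearest genes, the first being Dnajb1 (0.68), to be read.

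The diet comparison asked whether these genes changed in brain vessels when mice ate PLX5622. Over all endothelial-like cells none of the 8 passed an adjusted p of 0.05 in edgeR's quasi-likelihood test, beside 1.06% of the 12775 genes tested. The closest was Vwf, at 95.7, 115, 130 and 150 CPM, with both PLX5622 libraries above both controls. Its log2 fold change was 0.45 ± 0.12 (SE) with an edgeR adjusted p of 0.091 (unadjusted p = 0.00155). Of the 8, only Vwf had both PLX5622 libraries above both controls, and Procr, Tfpi and Plat had both below. Over all genes tested, 15.2% lay above and 25.8% below in this way.

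The Vwf value in all endothelial-like cells lay near the threshold and crossed it under some settings. The adjusted p was 0.0488 without a normalization factor, 0.00309 without the filter on low counts, 0.00212 without control diet 2 and 0.0191 without PLX5622 diet 1. With the replicate number as a block it was 0.000636, although no source used here says that the numbers pair the libraries. With equal weight to each zone the log2 fold change was 0.34 and the adjusted p 0.141. That fit treated the zone sums of a library as independent, so its p-values may be too small. It called 360 genes higher and 329 lower of 11444, beside 92 and 43 in the main test. The replicate block called 256 higher and 174 lower of 12775 genes. Without the filter on low counts 220 and 135 of 20075 were called, and without a normalization factor 97 and 90 of 12775. Each of these settings thus called more genes in all than the main test.

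The other members moved by less over all endothelial-like cells. Plat stood at 517, 496, 455 and 453 CPM, a log2 fold change of -0.11 ± 0.11. Procr stood at 17.9, 16.7, 14.2 and 15.1 CPM (-0.19 ± 0.12). Tfpi, at 29.3, 23.6, 23.5 and 22.5 CPM, gave -0.13 ± 0.11, with the first control library apart from the others. For Thbd, Anxa2 and Tgm2 the diets overlapped and the log2 fold changes were 0.05 ± 0.10, 0.08 ± 0.11 and 0.06 ± 0.09. F8 gave -0.49 ± 0.52, an error larger than its value. The edgeR adjusted p of these 7 genes was 0.644 or more.

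In venous-like cells 2 of 7 members tested were called, both higher on PLX5622, beside 0.765% of the 10328 genes tested that were called higher and 1.02% called in either direction. Vwf rose from 239 and 234 CPM on the control diet to 466 and 408 CPM on PLX5622. The log2 fold change was 0.91 ± 0.11 (SE) with an edgeR adjusted p of 5.84e-07. Tgm2 rose from 219 and 190 CPM to 316 and 267 CPM, a log2 fold change of 0.54 ± 0.11 with an edgeR adjusted p of 0.00432. The groups did not overlap for either gene, as for 17.1% of all genes tested in the same direction. Without PLX5622 diet 1, the Tgm2 call was lost (0.42 ± 0.15, edgeR adjusted p = 0.349), while Vwf kept its call (0.81 ± 0.15, adjusted p = 0.000147). In DESeq2 the adjusted p of Tgm2 was 0.0499.

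Plat, the fibrinolytic protease, went the other way in venous-like cells without passing the test, at 555, 520, 403 and 442 CPM (-0.31 ± 0.11, edgeR adjusted p = 0.278). Thbd, Procr, Tfpi and Anxa2 had log2 fold changes of 0.12 ± 0.11, -0.04 ± 0.29, 0.16 ± 0.19 and 0.11 ± 0.12 there. F8, with 11 UMIs in venous-like cells, was not tested.

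The makeup of the venous-like class moved with these calls. A core of the class, the cells that were venous-like at the coarser clustering resolution of 0.3 as well as at 0.5, held 12.9% and 16.2% of the venous-like cells on the control diet and 36.9% and 31.9% on PLX5622. The core counted 24, 97, 108 and 123 cells. It carried more venous marker RNA than the outer part, 0.623% to 0.747% of UMIs against 0.340% to 0.373%. Clusters were drawn from the other genes of the same cells, so these shares are no result about cell numbers.

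Vwf in the core stood at 964, 556, 944 and 893 CPM, with the first control library as high as the PLX5622 libraries. Its log2 fold change there was 0.37 ± 0.16 (edgeR adjusted p = 0.643). In the outer part Vwf stood at 105, 165, 168 and 166 CPM, or 0.25 ± 0.15 (edgeR adjusted p = 0.828). Arterial-like cells held 134 to 205 CPM of Vwf, so the outer part lay below or within their range. Tgm2 stood at 424, 301, 473 and 412 CPM in the core (0.37 ± 0.15, adjusted p = 0.545) and at 181, 167, 217 and 194 CPM in the outer part (0.26 ± 0.12, adjusted p = 0.624). At resolution 0.3, where the venous-like class was nearly the core, neither gene was called (0.36 for both, edgeR adjusted p = 0.634 for Vwf and 0.573 for Tgm2). At resolution 1.0 both genes kept their calls in venous-like cells (0.90 with an edgeR adjusted p of 1.39e-06 for Vwf, 0.52 with 0.00787 for Tgm2). Neither gene was called in either part, and the difference within each part was less than that over the class. Over all genes tested, 0.542% of 8304 were called in the core and 0.569% of 9660 in the outer part. Whether more cells of one kind or more RNA per cell gave the higher venous-like levels cannot be told apart from the sums.

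**Figure D2:**
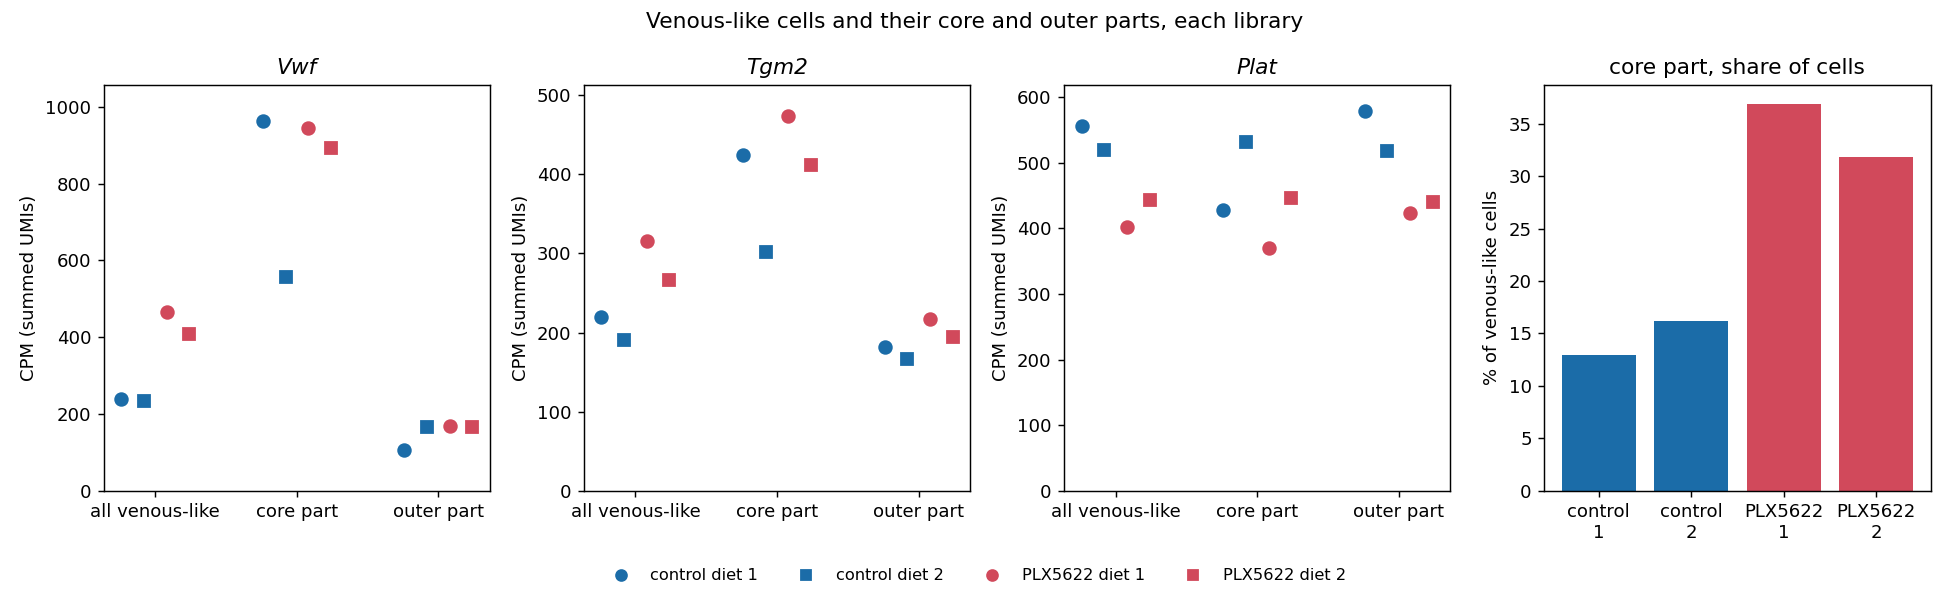
Levels in CPM (vertical axes, from 0) of Vwf, Tgm2 and Plat in all venous-like cells and in their core and outer parts, 1 point per library, and the share of venous-like cells in the core (bars). The 2 PLX5622 libraries lie above both controls for Vwf over the whole class, but within the core control diet 1 reached 964 CPM, and the core held 36.9% and 31.9% of cells on PLX5622 against 12.9% and 16.2% on the control diet.

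Other measures in the venous-like droplets were as follows. Platelet markers, of interest because platelets also carry von Willebrand factor, made up 0.00104% to 0.00146% of UMIs. Endothelial markers made up 2.32% to 2.35% in all libraries. Venous markers made up 0.388%, 0.427%, 0.460% and 0.489% of UMIs, and their part in the result was not tested. After thinning every cell to 2000 UMIs, 22.0%, 30.3%, 46.4% and 40.4% of venous-like cells had a Vwf UMI, and 34.4%, 30.4%, 46.4% and 40.1% a Tgm2 UMI. The order of the diets was thus kept at equal depth per cell. In RNA outside cells (barcodes under 100 UMIs), Vwf stood at 110, 123, 145 and 167 CPM.

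In the other zones none of 7 members was called. The background was 0.629% of 9704 genes in arterial-like cells, 0.763% of 10874 in arterial-side capillary-like cells and 0.883% of 11321 in venous-side capillary-like cells. The log2 fold changes of the members ran from -0.20 to 0.04 in arterial-like, from -0.21 to 0.37 in arterial-side capillary-like and from -0.15 to 0.18 in venous-side capillary-like cells. The value of 0.37 ± 0.14 belonged to Vwf in arterial-side capillary-like cells, at 39.5, 50.2, 55.4 and 61.2 CPM (edgeR adjusted p = 0.359). With the replicate block that value passed (0.40, edgeR adjusted p = 0.042). The block called 130 genes higher and 70 lower there, beside 63 and 20 in the main test. Without control diet 2 the value was 0.66.

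A test of the difference between zones, with the library as a block, called 1 of 7 members, Tgm2, beside 0.603% of the 11444 genes tested. The diet effect on Tgm2 in venous-like cells exceeded the mean of the other zones by 0.69 ± 0.10 on the log2 scale (edgeR adjusted p of the interaction = 3.77e-05). Without control diet 2 no member was called. For Vwf this excess was 0.77 ± 0.23, and the edgeR adjusted p of the interaction was 0.74. A difference of its diet effect between zones thus did not pass the test. The interaction test takes all zone by diet terms together, so the p-values given here are not those of the excess. Without PLX5622 diet 1, or without PLX5622 diet 2, 2 members were called. Plat gave -0.21 ± 0.06 (adjusted p of the interaction = 0.207).

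**Figure D3:**
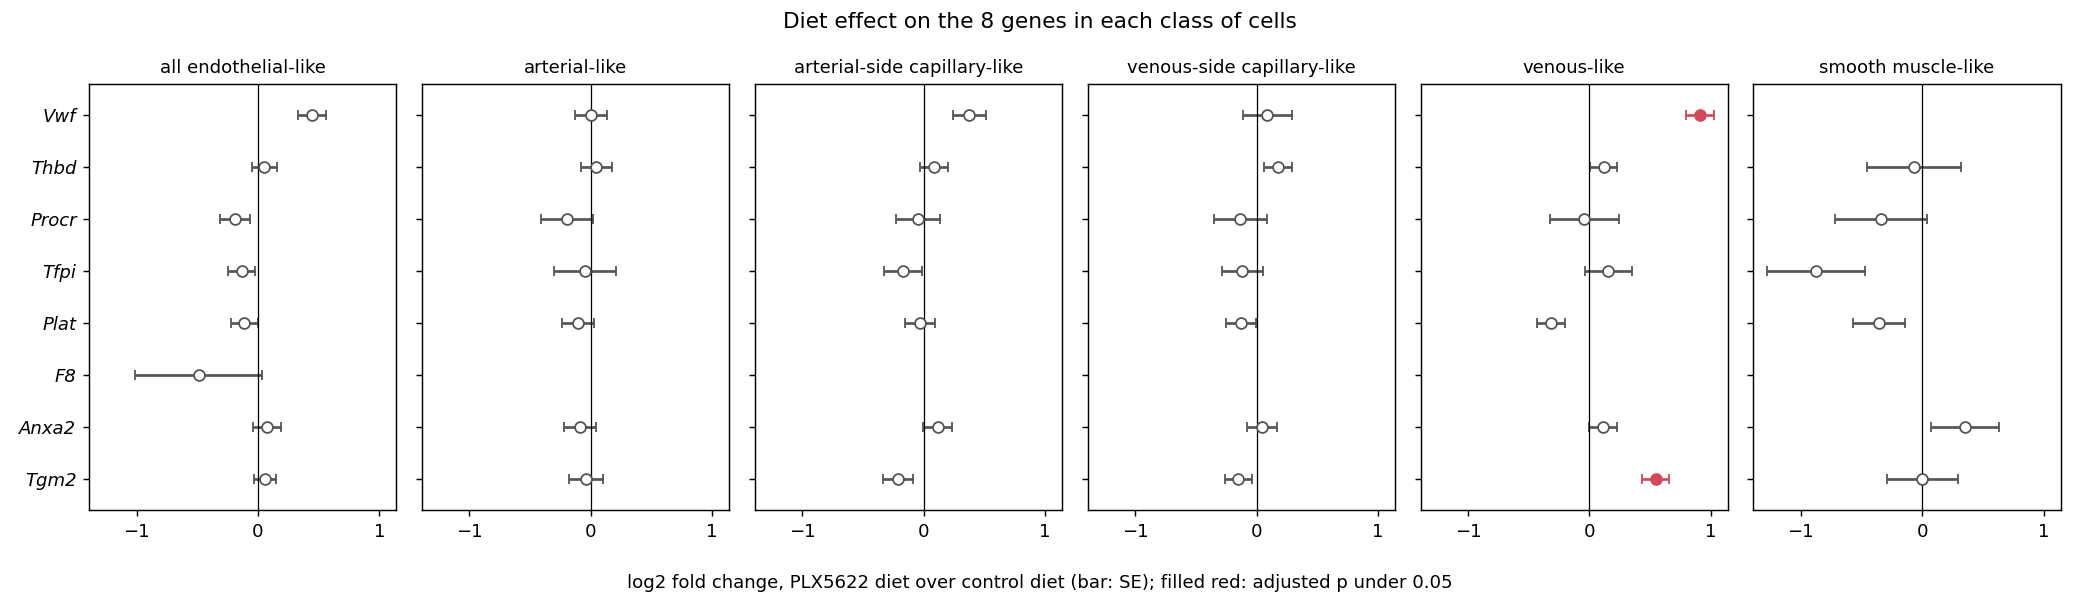
Log2 fold change of each gene, PLX5622 over control diet (horizontal axes; bars are SE), in all endothelial-like cells, the 4 zones and smooth muscle-like cells, with 2 libraries per diet. The filled points, with an adjusted p under 0.05, are Vwf at 0.91 and Tgm2 at 0.54, both in venous-like cells.

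In smooth muscle-like cells none of 6 members tested was called, beside 0.0531% of 5653 genes. The farthest from 0 was Tfpi, at 70.9, 35.3, 25.6 and 26.9 CPM from 22, 19, 9 and 14 UMIs (-0.87 ± 0.40, edgeR adjusted p = 0.983). Pericyte-like cells numbered 8 in control diet 1, too few for a test. Together with the mixed droplets, an alternative chosen after seeing the data, none of 7 members was called, beside 0.118% of 8483 genes.

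Of 52 other genes of the pathway, listed by role and not by how they moved, 41 had at least 1 UMI in endothelial-like cells and 13 had a mean of 20 CPM or more. The 11 with no UMI there included the fibrinogen chains Fga, Fgb and Fgg, plasminogen (Plg) and protein C (Proc), which the liver makes. Of 16 clotting factors, 8 had a UMI and 3 were tested, with no call. F3, tissue factor, which starts the cascade, was near absent, with 0, 4, 2 and 2 UMIs in endothelial-like cells and none in pericyte-like or smooth muscle-like cells.

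F2r, the main thrombin receptor, stood at 140, 129, 77.3 and 124 CPM in pericyte-like cells and at 39.1 to 64.5 CPM in smooth muscle-like cells. In endothelial-like cells it stood at 0.568 to 1.42 CPM (log2 fold change 0.78 ± 0.43, edgeR adjusted p = 0.565). Pros1, protein S, the cofactor of activated protein C, lay at 65.2 to 72.5 CPM in endothelial-like cells and 79.2 to 142 CPM in pericyte-like cells. Serpine2, protease nexin 1, which inhibits thrombin and plasminogen activators, lay at 117 to 155 CPM in smooth muscle-like cells and 16.2 to 21.2 CPM in endothelial-like cells.

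**Figure D4:**
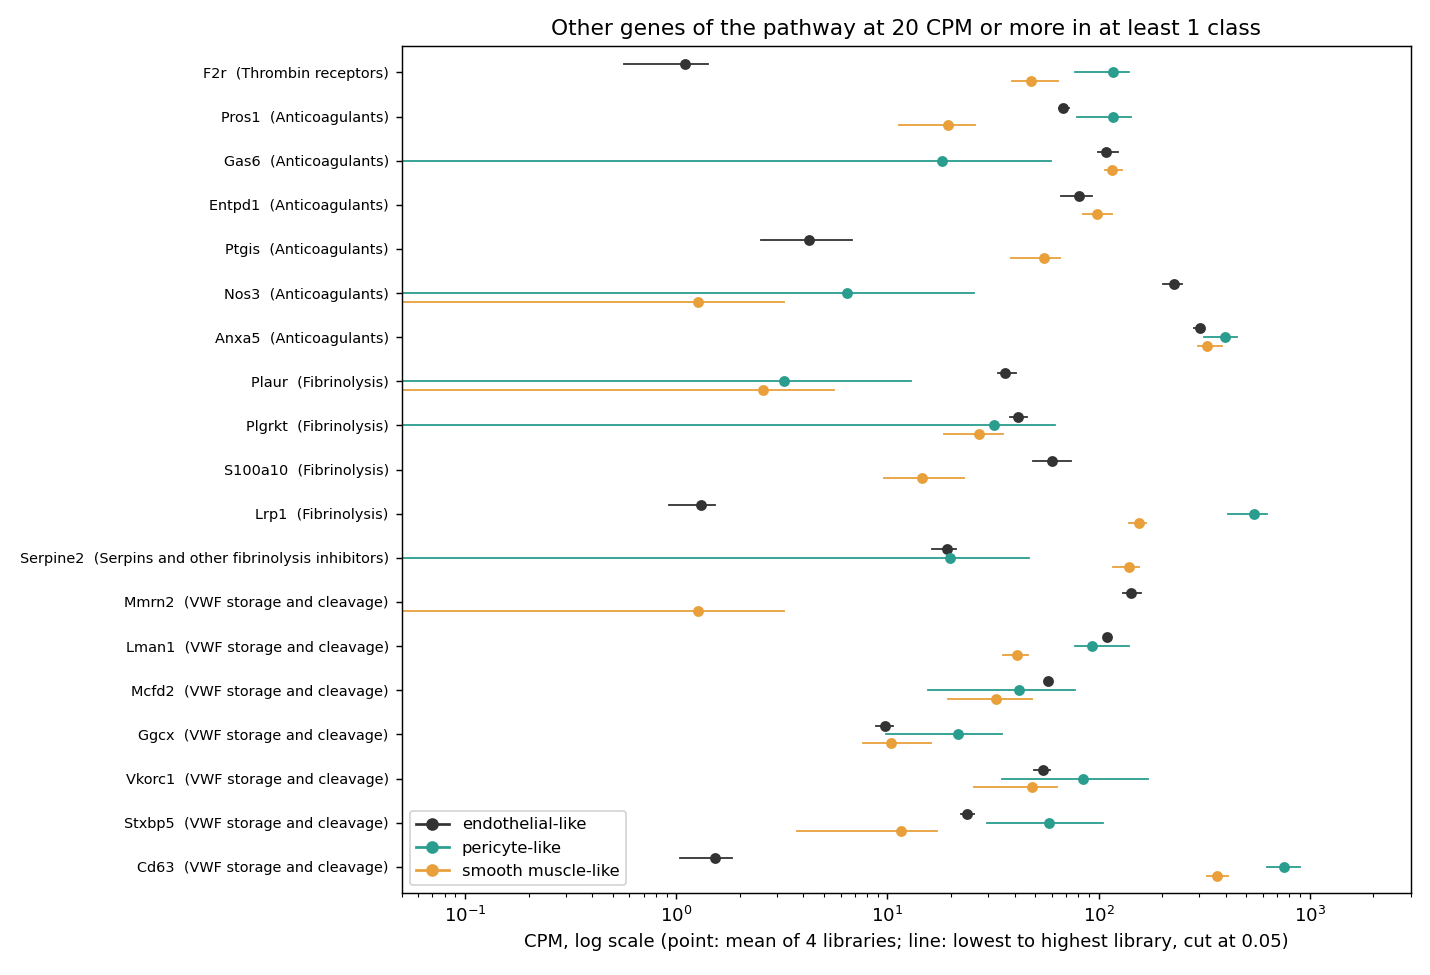
Mean level in CPM (horizontal axis, log scale; lines run from the lowest to the highest of 4 libraries and are cut at 0.05) of the 19 other pathway genes with 20 CPM or more in endothelial-like, pericyte-like or smooth muscle-like cells, with the role they were listed under. F2r lies at 77.3 to 140 CPM in pericyte-like cells and at 0.568 to 1.42 CPM in endothelial-like cells.

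For the diet, no pathway gene passed the main test over all endothelial-like cells. Tested beside the 3 clotting factors were 8 genes listed under anticoagulants, 4 fibrinolysis genes, 1 fibrinolysis inhibitor, 1 thrombin receptor and 8 genes of VWF storage and cleavage. In arterial-like cells 1 of 6 tested genes listed under anticoagulants was called, beside 0.629% of all genes tested there. That heading is a grouping made for this report and does not make each gene in it an anticoagulant. It was Gas6, a vitamin K-dependent protein related to protein S, which was higher on PLX5622. It stood at 103, 125, 137 and 190 CPM (0.50 ± 0.14, edgeR adjusted p = 0.0362). The Gas6 call was lost in DESeq2 (adjusted p = 1.0), in limma-voom (adjusted p = 0.205), without control diet 1 (0.40, adjusted p = 0.60) and without PLX5622 diet 2 (0.23, adjusted p = 0.992). It was also lost without a normalization factor (adjusted p = 0.152), without the filter on low counts (0.106), at a limit of 5% mitochondrial UMIs (0.0569) and with the zones of resolution 0.3 (0.998), where the arterial-like class held only 10, 61, 31 and 39 cells. No other zone had a pathway gene called in the main test.

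Other settings called further pathway genes, which are named here after their values were seen. Ptgis, prostacyclin synthase, stood at 4.06, 6.78, 3.59 and 2.51 CPM in endothelial-like cells (-0.93 ± 0.27, edgeR adjusted p = 0.136). It passed, lower on PLX5622, without the filter on low counts (adjusted p = 0.00309), without control diet 1 (0.00831), without PLX5622 diet 1 (0.00506), with the replicate block (0.0483) and with equal weight to the zones (0.0251). Without control diet 2, the library with the highest level, it gave -0.34 with an adjusted p of 0.68. In venous-like cells Ptgis passed without control diet 1 (adjusted p = 0.0243), without PLX5622 diet 1 (0.041) and in the core part (0.0194), against 0.223 in the main test. Smooth muscle-like cells held 38.7 to 65.5 CPM of Ptgis, and 8 smooth muscle markers made up 0.00304% to 0.00377% of UMIs in endothelial-like cells. Vkorc1, a subunit of the vitamin K reductase, passed over endothelial-like cells with equal weight to the zones (0.24, adjusted p = 0.0333). In that setting, for Ptgis and Vkorc1 alike, the zone sums of a library were treated as independent, so its p-values may be too small. In venous-side capillary-like cells Entpd1, which breaks down extracellular ATP and ADP, passed with the replicate block (-0.40, adjusted p = 0.0364), F2r passed without the filter (adjusted p = 0.0432) and Ptgis passed at resolution 0.3 (adjusted p = 0.0406).

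Selp, P-selectin, which is stored with von Willebrand factor in endothelial granules, was singled out after its values were seen. It had 0, 0, 8 and 9 UMIs in venous-like cells, from 4 and 3 cells on PLX5622, and none in the other 3 zones. The filter on low counts left Selp out of the main test. Without that filter it was called in venous-like cells (edgeR adjusted p = 0.00383) and in all endothelial-like cells (adjusted p = 0.00494), on UMIs from those few cells and with none in the controls' venous-like cells. Without control diet 1 it did not pass in either (adjusted p = 0.0596 and 0.0924).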

How the data were processed

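Single-cell RNA was measured in 4 libraries, 2 per diet. The deposited values are raw UMI counts for each gene and barcode, as whole numbers, per the file headers, and no cell calling had been applied. The submitters' processing notes name Cell Ranger 6.0.1 and Seurat 4.0 and the builds mm10 and mm39 with no role, whereas the file headers name Cell Ranger 4. No source used here says which build the counting used. Coordinates came from GENCODE M21 (GRCm38). The libraries held 11186648 to 38600208 UMIs.

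The 8 members, the 52 pathway genes and the other gene lists were chosen with earlier results of these data known. Genes named in the text were all members, 5 pathway genes taken whatever their values (S100a10, Serpine2, F2r, F3, Pros1), pathway genes with an adjusted p under 0.05 in a class, and the 3 genes most like each member. Beside these, Selp, Ptgis, Vkorc1 and Entpd1 were named after their values were seen, the undetected Fga, Fgb, Fgg, Plg and Proc as examples, Cldn5 as a marker, and Rprd1b, Gm20412 and Fundc2 for their overlap with a member. A further pathway gene is not reported here. Cells were clustered with 2000 variable genes, 30 components (20 in the second step), 15 neighbours and Leiden resolution 0.5 (Python 3.11.15, scikit-learn 1.9.0, igraph 0.11.9). Zones and cell types other than endothelium were named from at least 3 markers, and first-step clusters that met no other type's rule were taken as endothelial-like. No doublet caller was run, so droplets with more than 1 cell may remain, and alternatives left out droplets with markers of other types or the 5% of cells with most UMIs.

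Counts were summed per library and class, and classes with at least 20 cells per library (fewer, down to 6, in some alternatives) were tested with edgeR 4.0.16 (R 4.3.3), with TMM factors, its default low-count filter, robust quasi-likelihood, two-sided, and Benjamini-Hochberg adjustment over all genes tested. The SE is the log2 fold change divided by the square root of F. DESeq2 1.42.0 and limma-voom 3.58.1 served as alternatives, besides other normalizations and filters, leaving out each library and a replicate block. Scripts were tested on simulated data. Intervals of counting error are not printed, and a level below 3 counts is read as not detectable at this depth.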

Additional observations from a re-analysis of the deposited data

Results flagged for a closer look

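The diet effect on Tgm2 differed between vessel zones in a test of the difference itself (adjusted p of the interaction = 3.77e-05), with 219 and 190 CPM in venous-like cells on the control diet and 316 and 267 CPM on PLX5622. In arterial-side capillary-like cells the values were 102, 85.3, 70.2 and 83.8 CPM. Without control diet 2 the interaction of Tgm2 no longer passed. The share of core cells among venous-like cells moved with this result, and within the core and the outer part Tgm2 was not called.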

How the results depend on the processing

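Over all endothelial-like cells the count of members called was 0 and became 1 (Vwf) without a normalization factor, without the filter on low counts and with the replicate block, and ranged from 0 to 1 when each library was left out (1 without control diet 2 or PLX5622 diet 1). In arterial-side capillary-like cells it was 0 and became 1 (Vwf) with the replicate block and without control diet 2, a range of 0 to 1. In venous-like cells it was 2 and fell to 0 in the core part, to 0 in the outer part and to 0 with the zones of resolution 0.3, whose venous-like class (24, 97, 109 and 124 cells) is nearly the core and no separate check, stayed at 2 at resolution 1.0, and ranged from 1 to 2 when each library was left out. Deviations of libraries with the same replicate number had correlations of only 0.00706 to 0.0662 over the genes tested. With 2 libraries per diet and counting noise in most genes, this cannot exclude a pairing. The interaction called 1 member, and 0 to 2 when each library was left out. With the zones of resolution 0.3 and with those of resolution 1.0 the interaction also called 1 member. Settings named here as core part, outer part and resolutions 0.3 and 1.0 for the diet and interaction tests were chosen after seeing the data. The cause of the lost Vwf and Tgm2 calls was not tested. The settings that kept every library and added a Vwf call also called more genes in all, as given with the Vwf values. Pathway genes called only under other settings are given with their values in the report.

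Members without a call changed sign under some settings. Over all endothelial-like cells, Thbd became -0.030 without droplets holding markers of other cell types and ranged from -0.025 to 0.12 when each library was left out, Tgm2 became -0.029 without the 5% of cells with most UMIs, and Anxa2 ranged from -0.089 to 0.28. In venous-like cells Procr became 0.021 with mitochondrial UMIs of at most 5% and 0.089 at resolution 1.0, Tfpi became -0.19 at resolution 0.3 and -0.18 in the core, and Anxa2 ranged from -0.026 to 0.27. Over all classes, 41 of 622 refitted diet values changed sign. Mean levels by zone moved by more than the SD between libraries in 16 of 64 cases at other resolutions. Shares of cells with a UMI fell by more than that in 30 of 32 cases after thinning, which removes UMIs by construction. With 46 F8 UMIs and 92 pericyte-like cells, depth limits what can be said of both.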
